A study of Homo sapiens with 4 samples.

Results

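The nascent polypeptide-associated complex (NAC) and the signal recognition particle (SRP) with its receptor were examined as a group of 10 genes, chosen by name: NACA, BTF3, SRP9, SRP14, SRP19, SRP54, SRP68, SRP72, SRPRA and SRPRB. Of these, 7 had rows in the count tables (NACA, BTF3, SRP14, SRP19, SRP54, SRP68 and SRPRA), each as a single transcript among 9271 listed in any table, and SRP9, SRP72 and SRPRB were not analysed here. Ribosome profiling was done in HEK293T, an established line from human embryonic kidney with the simian virus large T antigen. Cells were left untreated (libraries untreated A and untreated B) or were given G418, an antibiotic that lowers decoding accuracy on the ribosome, at 500 µg/mL for 24 hr (libraries G418 A and G418 B). Both groups share the same line and growth medium, and the study calls A and B biological replicates. Ribosome protected fragments (RPFs) on mRNAs numbered 6082600 and 2440204 in untreated A and B and 5677910 and 4763858 in G418 A and B, so untreated replicate B gives the least precise values.

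NAC is a heterodimer of an alpha subunit, encoded by NACA, and a beta subunit, encoded by BTF3. It sits at the exit of the ribosomal tunnel, where it meets nearly every emerging chain and limits which chains SRP may engage. SRP is an RNA and protein particle that recognizes the signal sequence of secretory and membrane proteins while they are being made and brings the ribosome to the endoplasmic reticulum (ER). SRP54 is the GTPase that binds the signal sequence, SRP19 helps to assemble SRP54 onto the SRP RNA, SRP68 forms a heterodimer with SRP72 on the same domain, and SRP14 with SRP9 slows elongation through the Alu domain. SRPRA is the GTPase subunit of the receptor on the ER membrane.

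The stop codons of 6 of these mRNAs are shown first because G418 is known to promote readthrough of stop codons, and the base after the stop codon is part of the termination signal. Each line gives 15 nt of coding sequence, the normal termination codon (NTC) with its next base in capitals, and the following nucleotides to a total of 30 nt, written 5′ to 3′ from GENCODE version 44 transcripts (hg38).
NACA: auggaauuaacaaugUAACcauauggaagc
SRP14: gcaacagcagcacagUAAAgggcauacauu
SRP19: caguucccaucacguUAAGaaugucugagg
SRP54: ggauucaauaauaugUAAAgaaaaugccuu
SRP68: uuuggauucaggagcUAACcaggcucuucc
SRPRA: gcccucaugaaggcuUAACguggcucuugc
BTF3 was the only member of the 7 with UGA, and the 6 shown end in UAA. By 4 nt stop codon, NACA, SRP68 and SRPRA share UAAC, found in 5.56% of the transcripts listed, SRP14 and SRP54 share UAAA (10.2%), SRP19 has UAAG (6.76%) and BTF3 has UGAA (13.4%). The SRP19 stop codon is that of the transcript used by the authors, the only 1 of 7 coding transcripts in GENCODE 44 that ends there.

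Those shown lie at chr12:56712538-56712540 on the minus strand (NACA), chr15:40036333-40036335 on the minus strand (SRP14) and chr5:112891605-112891607 on the plus strand (SRP19). Those of SRP54, SRP68 and SRPRA lie at chr14:35029150-35029152 on the plus strand, chr17:76039706-76039708 on the minus strand and chr11:126263916-126263918 on the minus strand. All are exonic, at the border between coding sequence and 3′UTR. The distance from the NTC to the end of the first in-frame stop codon in the 3′UTR (3′TC) was 30 nt in BTF3, 93 nt in SRP14, 54 nt in SRP19, 24 nt in SRP54, 117 nt in SRP68 and 102 nt in SRPRA. NACA differed from the other 6, since its 3′UTR is 34 nt long and holds no in-frame 3′TC, as was the case for 446 transcripts (4.81%) in the tables. Only 51 listed transcripts have a shorter 3′UTR than NACA, and the median over all is 926 nt.

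NAC subunits had some of the highest RPF densities in these cells, and SRP subunits covered a wide range below them. RPF density depends on the amount of mRNA as well as on its translation, and mRNA levels were not analysed here. RPF density on the coding sequence (CDS), which the authors give as RPKM, per length and per library size, so that genes can be compared, was 1584 and 1177 RPKM for NACA in untreated A and B and 1409 and 1257 RPKM in G418 A and B. BTF3 had 1418 and 1077 RPKM in untreated cells and 1284 and 1160 RPKM with G418. Both NAC genes lay at or above the 98.8th percentile of listed transcripts in each library, and the G418 values lay between the untreated ones, so the groups overlapped.

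SRP14 had the highest RPF density of the SRP genes measured, with 543 and 535 RPKM in untreated cells and 549 and 522 RPKM with G418, and its groups overlapped. SRP19 had 152 and 106 RPKM in untreated A and B and 182 and 179 RPKM in the G418 libraries. It was the only member whose G418 libraries both lay above, or both lay below, the untreated ones.

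SRP54 and SRP68 had similar densities. SRP54 had 117 and 87.6 RPKM in untreated cells and 97.6 RPKM in each G418 library, and SRP68 had 101 and 86.0 RPKM in untreated cells and 93.6 and 89.5 RPKM with G418. SRPRA was lowest, with 52.8 and 49.7 RPKM in untreated cells and 55.5 and 49.1 RPKM with G418. Ordered by untreated mean, the levels were 1380 ± 288 RPKM for NACA, 1247 ± 241 for BTF3, 539 ± 5.90 for SRP14, 129 ± 32.1 for SRP19, 102 ± 20.9 for SRP54, 93.7 ± 10.9 for SRP68 and 51.3 ± 2.23 for SRPRA (SD, n = 2). The untreated values of NACA and BTF3 overlapped, as did those of SRP19 with SRP54 and of SRP54 with SRP68, although within each of the 4 libraries the earlier gene of each pair was the higher. SRP14 stood apart from both BTF3 and SRP19, and SRPRA from SRP68.

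**Figure D1:**
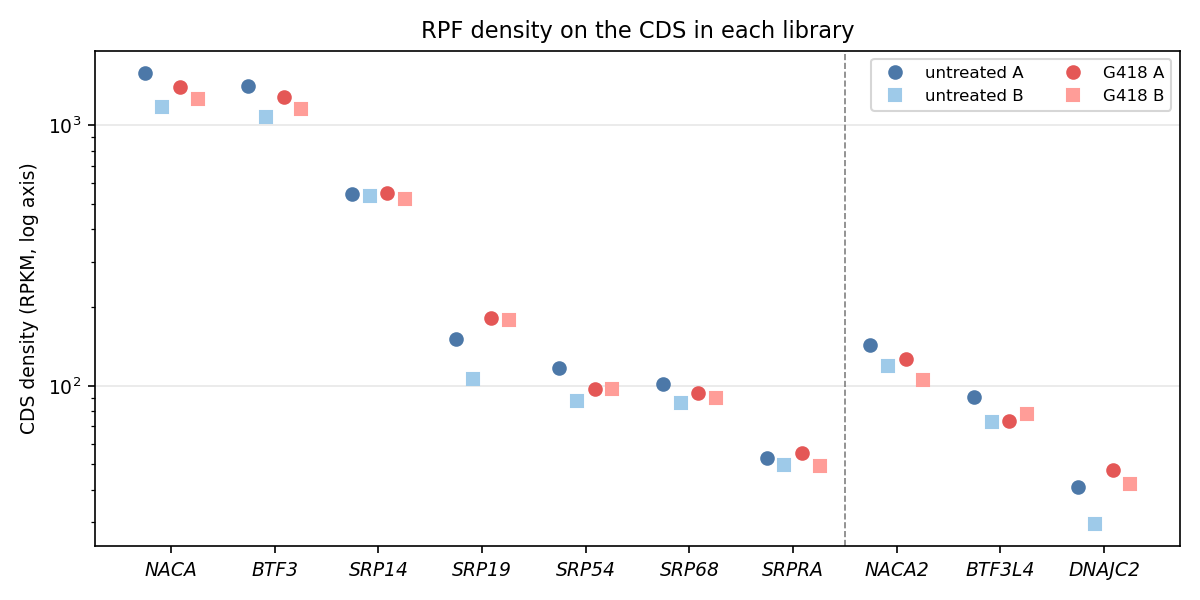
RPF density on the CDS (RPKM, log axis) of the 7 measured members and, right of the dashed line, of the NAC paralogs NACA2 and BTF3L4 and of DNAJC2. Each point is 1 library. NACA and BTF3 sit near each other at the top in all 4 libraries, and SRPRA is lowest of the members, between 49.1 and 55.5 RPKM.

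Because NACA and BTF3 encode partners of a dimer, the ratio of their densities was compared between conditions. NACA exceeded BTF3 by a factor of 1.12 and 1.09 in untreated A and B and of 1.10 and 1.08 in G418 A and B. The mean ratio was 1.10 ± 0.0175 in untreated cells and 1.09 ± 0.00960 with G418 (SD, n = 2), a log2 difference of -0.019 (exact two-sided permutation test, p = 0.667, where 2 libraries against 2 cannot go below 0.3333). The other dimer pairs (SRP9 with SRP14, SRP68 with SRP72, SRPRA with SRPRB) could not be compared, as their partners were not analysed here. NACA and BTF3 have 6 and 16 annotated pseudogenes by name, and SRP14 and SRP68 have 5 and 3. Reads with several equally good positions were kept at a single position by the authors, so reads from close copies cannot be told apart for these genes.

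CDS reads of the members were then tested between conditions. No member passed the test in either direction (edgeR quasi-likelihood test, Benjamini-Hochberg adjusted p from 0.0660 for SRP19 to 0.843 for SRPRA), where 8.52% of the 8494 transcripts tested passed, 5.31% higher and 3.21% lower. SRP19 was the only 1 of the 7 with an unadjusted p under 0.05, and DESeq2 called none. The log2 fold changes, G418 over untreated, were -0.12 ± 0.09 for NACA, -0.10 ± 0.09 for BTF3, -0.08 ± 0.09 for SRP14, -0.15 ± 0.10 for SRP54, -0.11 ± 0.09 for SRP68 and -0.04 ± 0.10 for SRPRA (± SE, n = 2 libraries per condition). SRP19 had the largest value, 0.37 ± 0.13, with an unadjusted p of 0.00659 and an adjusted p of 0.0660 in the same edgeR test. The median over the 7 members was -0.10 beside 0.00 over all transcripts tested.

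These values depended on which untreated library was used. Without untreated replicate B, 4 members were called lower, NACA (log2 fold change -0.27), BTF3 (-0.23), SRP54 (-0.28) and SRP68 (-0.16), whereas without untreated replicate A those of NACA, BTF3 and SRP54 turned to 0.045, 0.048 and 0.020. With 1 untreated library left, the spread came from the G418 pair, which varied less (chi-square per transcript 1.35 between replicates, against 4.35 for the untreated pair), so those p-values may be too small. SRP19 was called higher in 3 of 10 alternatives. They were library totals (log2 fold change 0.47), a replicate block that pairs libraries by letter (0.38) and the fit without untreated replicate A (0.62). The adjusted p with the block was 0.0210 (edgeR). Without untreated replicate B the log2 fold change of SRP19 was 0.23, and with DESeq2 SRP19 did not pass (0.38, adjusted p = 0.286). Both lettered pairs of libraries gave a higher value with G418 (0.29 for A and 0.77 for B, log2, by CDS totals).

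**Figure D2:**
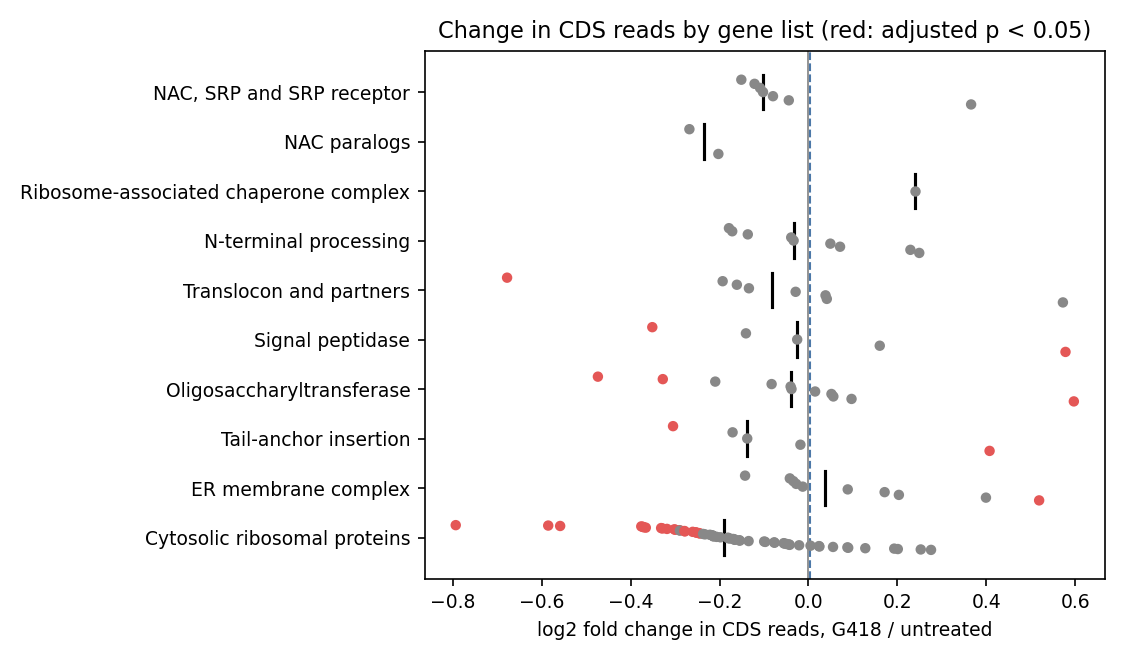
Log2 fold change in CDS reads (G418 over untreated) for each gene tested, by gene list. Black bars are list medians, the dashed line is the median of all transcripts tested and red points passed an adjusted p of 0.05. No member of the top row is red, and SRP19 (0.37) lies apart from the other 6, which sit between -0.15 and -0.04.

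Reads in the 5′UTR were set against the CDS reads of the same transcript, which removes the level of the transcript. NACA had fewer 5′UTR reads per CDS read with G418. It had 5.07 and 7.29 5′UTR reads per 100 CDS reads in untreated A and B and 3.51 and 3.73 in G418 A and B, and the groups did not overlap. The log2 fold change was -0.75 ± 0.17 (SE, n = 2 per condition, edgeR adjusted p = 0.0411), and NACA was the only 1 of 5 members tested to pass, where 1.67% of 3596 transcripts passed, all of them lower. For NACA it was -1.01 without untreated replicate A and -0.49 without untreated replicate B. Over all transcripts tested the median log2 fold change was -0.21 (-0.34 without untreated replicate A and -0.084 without untreated replicate B). The call for NACA was lost without G418 A (edgeR adjusted p = 0.618), without G418 B (0.246), with DESeq2 (0.0936) and with a minimum of 50 5′UTR reads (0.0545), over a range of 2.57e-10 to 0.618 across 9 alternatives, and the direction held in each.

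BTF3 had 6.34 and 10.1 5′UTR reads per 100 CDS reads in untreated cells and 5.38 and 7.002 with G418, so its groups overlapped (log2 fold change -0.38 ± 0.20, edgeR adjusted p = 0.423). Without untreated replicate A it was -0.71 and passed, and without untreated replicate B it was -0.042 (edgeR adjusted p = 0.936). SRP54 had 6.06 and 7.92 5′UTR reads per 100 CDS reads in untreated cells and 7.92 and 6.59 with G418, and it showed no difference larger than its spread (0.10 ± 0.26, adjusted p = 0.900).
SRP19 had 3.51 and 6.19 5′UTR reads per 100 CDS reads in untreated cells and 4.34 and 2.14 with G418, and SRP14 had 0.927 and 0.382 against 0.403 and 0.661. Neither passed (edgeR adjusted p = 0.785 and 0.740). SRP68 and SRPRA had at most 0.282 in any library and held too few 5′UTR reads to be tested. In the annotation, the 5′UTRs of BTF3, SRP19, SRP54, SRP68 and SRPRA overlap no coding sequence of another coding transcript of the same gene and contain no upstream AUG. For NACA and SRP14 the 5′UTR of the transcript used by the authors has another length than in GENCODE 44, so neither was checked.

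**Figure D3:**
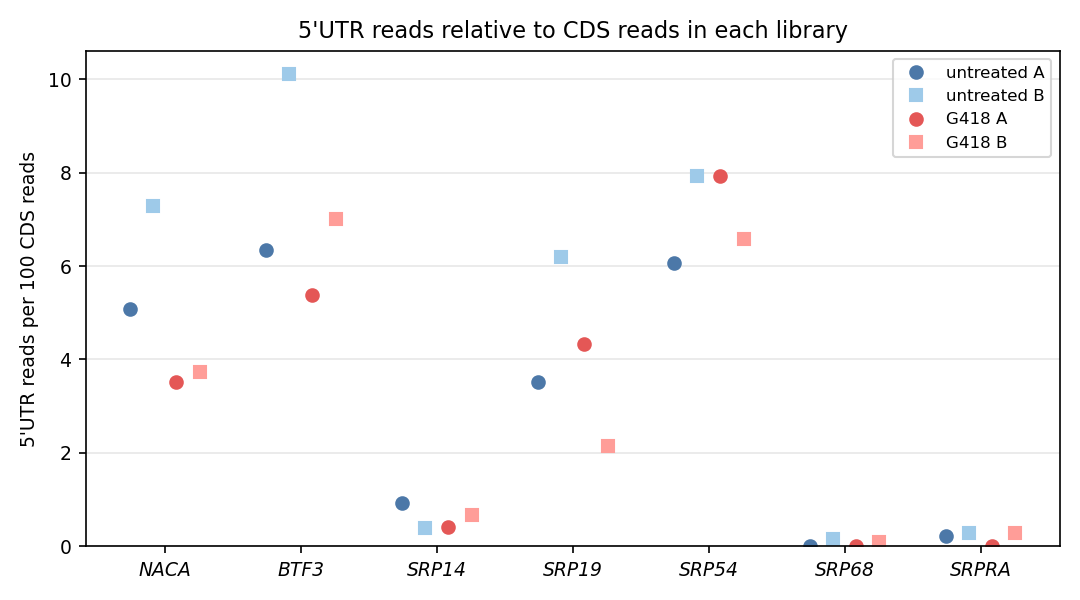
Deposited 5′UTR reads per 100 CDS reads of each member, with 1 point per library. NACA has both G418 points (3.51 and 3.73) below both untreated points (5.07 and 7.29), whereas the points of BTF3, SRP14, SRP19 and SRP54 overlap between conditions, and SRP68 and SRPRA lie near 0.

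Readthrough was measured by the ribosome readthrough score (RRTS), the RPF density past the NTC, up to the first 3′TC in frame, divided by the density on the CDS. A score of 1 would mean that ribosomes were as dense past the stop codon as before it. The first 6 nt past the NTC are left out. The study assumes that RPFs in this region come from readthrough. It reports that 3′UTR reads of untreated cells did not keep the reading frame of the CDS, whereas those with G418 did. Reading frame was not examined here, so an untreated score need not measure readthrough. For NACA, which has no 3′TC, the authors' length for this region is 22 nt of the 34 nt 3′UTR.

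Relative to its CDS density, NACA carried more RPFs past its stop codon in untreated cells than most mRNAs did, and rose further with G418. It had 55 and 12 reads in untreated A and B and 110 and 83 in G418 A and B, with an RRTS of 0.177 and 0.119 against 0.423 and 0.391. In untreated cells these scores lay at the 93.4th and 90.8th percentile of the 5843 and 3743 transcripts that met the study's minimum of mRNA reads, of which the median was 0. With G418 they lay at the 78.3rd and 77.9th percentile.
The groups did not overlap, and the log2 fold change in readthrough was 1.34 ± 0.22 (SE, edgeR adjusted p = 3.37e-09), at the 11.0th percentile of the 2827 transcripts tested, of which the median was 3.18. Among transcripts that also lack an in-frame 3′TC, NACA lay at the 97.7th and 96.3rd percentile in untreated A and B (n = 264 and 191) and at the 90.1st and 88.7th with G418 (n = 274 and 257). When only those with a 3′UTR of at most 66 nt were kept, 3 of 105 and 2 of 80 scored higher than NACA in the untreated libraries and 11 of 108 and 16 of 101 with G418.

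BTF3, the member with UGA, went from few reads to many. It had 9 and 3 reads before the 3′TC in the untreated libraries and 73 in each G418 library, with an RRTS of 0.0296 and 0.0298 against 0.283 and 0.342. The groups were far apart, and the log2 fold change was 3.36 ± 0.35 (SE, edgeR adjusted p = 6.47e-21), beside a median of 3.18 over all transcripts tested. Without untreated replicate A that median was 4.96 and the value of BTF3 3.35. The ratio of pooled scores was 10.4 (95% exact interval 5.79 to 20.6, counting error only). With G418 the BTF3 score was near the middle of transcripts with the same UGAA stop codon, at the 50.7th and 65.8th percentile, where the medians were 0.277 and 0.248. So NACA and BTF3, with nearly equal CDS density, differed in RRTS before treatment (pooled 0.163, interval 0.126 to 0.207, against 0.0297, interval 0.0153 to 0.0518) and were closer to each other with G418 (0.409, interval 0.353 to 0.471, against 0.309, interval 0.261 to 0.364).

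SRP68 and SRP14 had almost no reads before the 3′TC in untreated cells. Both met the minimum of 10 reads for the test only through their G418 libraries, so a call of higher was nearly set by that minimum. SRP68 had 0 reads in both untreated libraries and 29 and 19 reads with G418, an RRTS of 0.3331 and 0.249. Over the untreated group, a floor of 3 reads would be an RRTS of 0.0218, and the exact 95% upper limit was 0.0268. The pooled score with G418 was 13.5 times that floor, and with counting error on both sides the exact 95% lower limit of the ratio was 10.5 (edgeR adjusted p = 8.18e-11). Its scores lay at the 67.9th and 59.8th percentile of transcripts ending in UAAC. SRP14 had 1 and 0 reads in untreated cells and 25 and 9 with G418, an RRTS of 0.00237 and 0 against 0.0625 and 0.0258.
For both genes the G418 libraries lay above the untreated ones. The log2 fold change of SRP14 was 4.49 ± 0.91 (SE, edgeR adjusted p = 3.54e-06), and the pooled ratio was 27.4 with an interval of 4.59 to 1113, set by the single untreated read. The log2 fold change was 6.82 without untreated replicate A and 3.67 without G418 replicate A. The level of SRP14 with G418 stayed low, at the 35.8th and 28.7th percentile of transcripts ending in UAAA, where the medians were 0.108 in both libraries. Although their CDS densities differ in the opposite sense, SRP14 thus had the lower readthrough score of the pair, and their G418 intervals did not overlap (pooled 0.0454, 0.0314 to 0.0635, against 0.294, 0.217 to 0.390).

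NACA, BTF3, SRP14 and SRP68 were the members with enough reads to be tested for readthrough, and each was called higher, as were 82.6% of all transcripts tested (0.0707% were called lower). SRP14 and SRP68 reached the minimum of 10 reads only through their G418 libraries, so their calls, in the main fit and in the alternatives, do not set the members apart. Each of these 4 calls held in all 9 alternatives. The remaining members were too sparse. SRPRA had 1 and 0 reads in untreated cells and 5 and 3 with G418, an RRTS of 0.0221 and 0 against 0.112 and 0.0829, with G418 above untreated in both replicates. With a minimum of 5 reads, which it reached only through its G418 libraries, its log2 fold change was 2.42 ± 1.34 (SE, edgeR adjusted p = 0.0905). SRP54 had 0 and 2 reads in untreated cells and 3 and 1 with G418 in a region of only 18 nt, so a difference was not detectable at this depth (pooled ratio 1.77, interval 0.254 to 19.6).

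**Figure D4:**
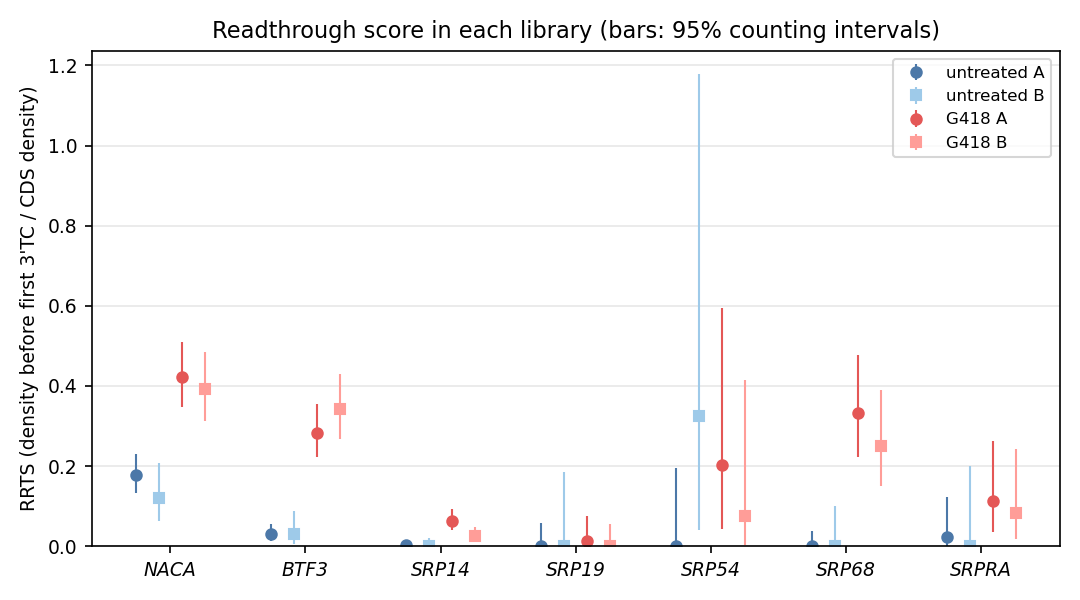
RRTS of each member in each library, with bars for 95% exact Poisson intervals that cover counting error only. The SRP19 score is that of the transcript used by the authors. NACA (0.423 and 0.391), BTF3 (0.283 and 0.342) and SRP68 (0.3331 and 0.249) lie highest with G418, SRP14 stays below 0.1, SRP19 is at or near 0 and the wide bars of SRP54 rest on 3 reads or fewer.

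SRP19 had nearly all of its 3′UTR reads beyond the first 3′TC. Only 1 read lay before its first 3′TC, in G418 A, so that RRTS was 0 in the other 3 libraries. CDS reads in this score may also come from SRP19 transcripts that end elsewhere, as described below. A score near 0 therefore need not mean low readthrough, and the part of those transcripts was not tested. In untreated cells 0 reads allow an RRTS of up to 0.0353 over the group. Yet the whole 3′UTR held 28 and 11 reads in untreated A and B and 18 and 14 in the G418 libraries, all but 1 of them after the first 3′TC. Relative to the reads on its mRNA, these made up 68.1 and 84.0 per 1000 in untreated cells and 39.7 and 35.4 per 1000 with G418.

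Thus SRP19 had the largest share of 3′UTR reads of any member in each library, and it was the only member with both G418 values below both untreated ones. The share is not corrected for length, so it does not rank the members by density. SRP19 has the longest 3′UTR (1472 nt) and the shortest CDS (306 nt) of the measured members. When whole 3′UTR reads were tested per CDS read, SRP19 was called lower (log2 fold change -0.99 ± 0.37, SE, edgeR adjusted p = 0.0128), 1 of 10 such calls among 4086 transcripts (0.245%), whereas 70.3% were called higher. The call was lost without untreated replicate A (adjusted p = 0.0588), without G418 replicate B (0.0675) and with DESeq2 (0.179), and held in the other 3 of 6 alternatives, all of which kept the direction.
The authors took the transcript with the stop codon farthest 3′, and of 7 coding transcripts of SRP19 in GENCODE 44 it is the only 1 that ends there. It has 101 codons, and only 2 nt of its coding sequence before the stop codon lie in its last exon, whereas the longest coding transcript has 144 codons and ends at chr5:112867535-112867537. In the same annotation 1470 of the 1472 nt of this 3′UTR are shared with ZRSR2P1, a transcribed processed pseudogene on the same strand, and 368 nt lie opposite exons of REEP5. The study left out transcripts whose UTRs overlap pseudogenes annotated in GENCODE 30, and how that version classed ZRSR2P1 was not checked here. The part of these genes in the SRP19 values was not tested. Of the other members, only SRPRA has a 3′UTR that overlaps another gene, by 47 nt of FAM118B on the opposite strand.

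**Figure D5:**
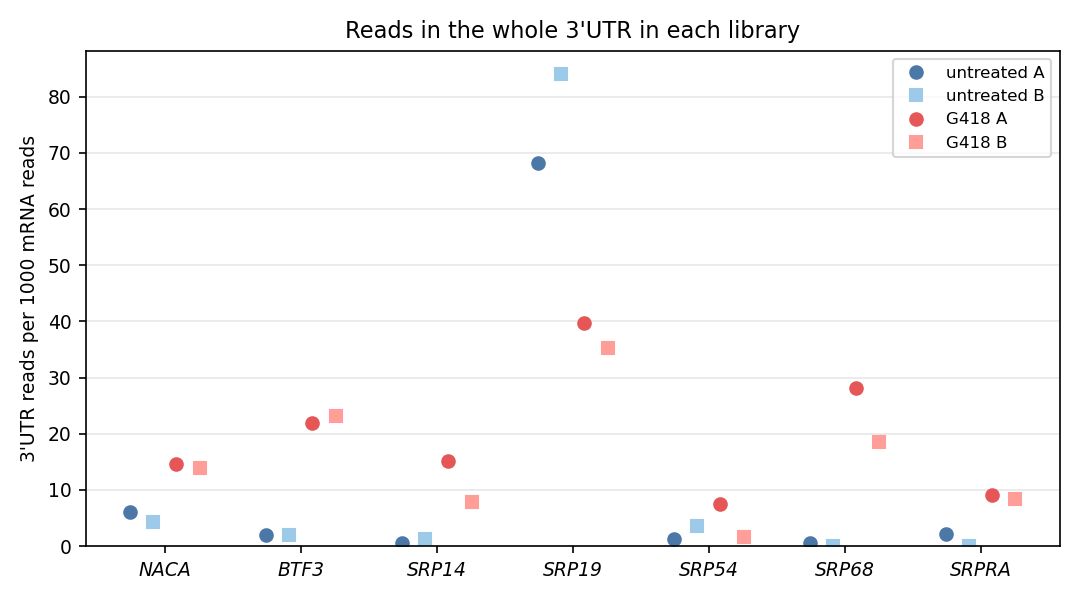
Reads in the whole 3′UTR per 1000 mRNA reads, not corrected for the length of the 3′UTR or the CDS, with 1 point per library. SRP19 is highest in all 4 libraries and goes from 68.1 and 84.0 in untreated cells to 39.7 and 35.4 with G418, while the G418 points lie above the untreated ones for NACA, BTF3, SRP14, SRP68 and SRPRA.

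With all 3′UTR reads, SRPRA had 2 and 0 in untreated cells and 8 and 6 with G418, a log2 fold change of 2.35 ± 0.99 (SE, edgeR adjusted p = 0.0282), close to its value before the first 3′TC and to the median of 2.38 over all transcripts. That median was 3.03 without untreated replicate A, and from 2.33 to 2.41 when another library was left out. SRPRA was called higher, as were the 70.3% given above, but it reached the minimum of 10 reads only through its G418 libraries, so the call does not set it apart. BTF3 had 3 and 1 reads beyond its first 3′TC in untreated cells and 43 and 30 with G418, and SRP68 had 1 and 0 against 13 and 5. In these mRNAs RPFs were therefore found past the first in-frame stop codon as well as before it.

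Both NAC subunits have close relatives that were also measured. NACA2, an alpha-like gene without introns, had 144 and 120 RPKM in untreated cells and 127 and 105 RPKM with G418, and BTF3L4, a beta-like gene, had 90.8 and 72.4 against 73.6 and 78.1 RPKM. Each thus had a small part of the CDS density of its relative, and neither passed the test of CDS reads (log2 fold change -0.27 ± 0.11 and -0.20 ± 0.13, edgeR adjusted p = 0.116 and 0.367).
NACA2 has the same UAAC stop codon as NACA, the same 215 codons and no in-frame 3′TC, with 95 nt counted. It had 4 and 0 reads past the NTC in untreated cells and 32 and 37 with G418 (RRTS 0.0328 and 0 against 0.316 and 0.484). With G418 the pooled scores of NACA2 and NACA had overlapping intervals (0.388, interval 0.302 to 0.492, against 0.409), whereas in untreated cells that of NACA2 was lower and the intervals did not overlap (0.0241, interval 0.00656 to 0.0616, against 0.163). Where the sequences of NACA and NACA2 are identical their reads cannot be told apart. BTF3L4 ends in UAAA, and its RRTS was 0.0411 and 0 in untreated cells and 0.306 and 0.167 with G418.

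DNAJC2, which with HSPA14 (not analysed here) forms a chaperone complex at the tunnel exit, had 41.1 and 29.6 RPKM in untreated cells and 47.4 and 42.0 RPKM with G418. Its groups did not overlap, but it did not pass the test of CDS reads (log2 fold change 0.24 ± 0.11, edgeR adjusted p = 0.194). It ends in UGAC, and it had 0 reads before the 3′TC in untreated cells and 7 and 8 with G418, a ratio with an exact 95% lower limit of 2.40.

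Other genes that act on the nascent chain, or receive it at the ER, were tested in CDS reads as 6 lists, and 9 of their 48 genes passed, beside 8.52% of all transcripts. None of 9 genes of N-terminal processing, which trim, acetylate or myristoylate new N termini, passed the test, with a median log2 fold change of -0.03 (edgeR, where 0 had an unadjusted p under 0.05, and DESeq2 called 0). Of 8 translocon genes, 1 fell, SEC61B, the beta subunit of the channel, from 570 and 541 RPKM in untreated cells to 383 and 347 RPKM with G418 (log2 fold change -0.68 ± 0.10, SE, edgeR adjusted p = 3.14e-05).
All 11 alternatives called SEC61B lower, and the list median was -0.08. Of 5 signal peptidase genes, 1 rose and 1 fell. The catalytic subunit SEC11C rose from 70.1 and 44.3 RPKM to 94.8 and 92.4 RPKM (0.58 ± 0.13, edgeR adjusted p = 0.00493), and SPCS2 fell from 184 and 168 RPKM to 154 and 137 RPKM (-0.35 ± 0.10, adjusted p = 0.0207). The other catalytic subunit, SEC11A, and the accessory subunits SPCS1 and SPCS3 did not pass (log2 fold change -0.14, -0.03 and 0.16).

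Among 11 oligosaccharyltransferase genes, which attach N-glycans to chains entering the ER, 1 rose and 2 fell. TUSC3, an oxidoreductase subunit, rose from 34.6 and 27.2 RPKM to 54.3 and 45.9 RPKM (0.60 ± 0.12, edgeR adjusted p = 0.00197). DAD1 fell from 612 and 530 to 449 and 417 RPKM (-0.47 ± 0.09, adjusted p = 0.00104), and TMEM258 from 533 and 486 to 425 and 430 RPKM (-0.33 ± 0.10, adjusted p = 0.0352).
The groups did not overlap for any of these genes. Of 5 tail-anchor insertion genes measured, from a list of 9, GET4 rose (0.41 ± 0.12, edgeR adjusted p = 0.0300) and BAG6 fell (-0.30 ± 0.09, adjusted p = 0.0267), both parts of the complex that hands tail-anchored proteins on. Of 10 genes of the ER membrane complex, which inserts membrane segments, EMC8 alone rose (0.52 ± 0.12, edgeR adjusted p = 0.00384). The list medians were -0.03 for signal peptidase, -0.04 for oligosaccharyltransferase, -0.14 for tail-anchor insertion and 0.04 for the ER membrane complex, beside 0.00 over all transcripts. The calls of SEC11C, SPCS2, TUSC3, DAD1, TMEM258, GET4, BAG6 and EMC8 were lost without G418 A and also without G418 B (edgeR adjusted p from 0.0875 to 0.745). SPCS2, TMEM258, BAG6, GET4 and EMC8 were also not called with DESeq2, and SPCS2, TMEM258 and BAG6 not with library totals or a higher minimum of CDS reads. With absent values taken as 0, SEC11C, SPCS2, TMEM258, BAG6 and GET4 were not called, while the direction of each of the 8 held in every alternative run.

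The proteins of the ribosome, on which NAC and SRP dock, were tested in the same way. With all libraries kept, 0 of 7 members were called in CDS reads, which at 8.52% over all transcripts does not set them apart. The difference between the lists was not tested, and calls of members also depended on the library left out, as given above. Of 60 cytosolic ribosomal protein genes, 20 were called lower in CDS reads and none higher (4 higher at an unadjusted p under 0.05, 0 higher with DESeq2), with a median log2 fold change of -0.19, where 3.21% of all transcripts tested were called lower. Library totals gave 9 lower and 5 higher with a median of -0.09, and DESeq2 gave 13 lower. Leaving out G418 A or G418 B left 1 and 2 lower and none higher, whereas leaving out untreated A or untreated B gave 33 and 37 lower and 4 higher each, so the count depended on the library left out while the median stayed between -0.20 and -0.18. RPS21 fell from 2324 RPKM in each untreated library to 1684 and 1572 RPKM (-0.59 ± 0.08, edgeR adjusted p = 3.14e-05), and RPL10L, an intronless copy, from 35.9 and 29.0 to 22.6 and 17.7 RPKM (-0.79 ± 0.16, adjusted p = 0.00196), a call lost without G418 A, without G418 B and with DESeq2. Where RPL10L is identical in sequence to the gene it copies, their reads cannot be told apart. For 5′UTR reads per CDS read, where NACA was called lower, 15 of 47 ribosomal protein genes were called lower with a median of -0.58 (1 and 3 without G418 A and G418 B, 25 and 20 without untreated A and untreated B), where 1.67% of all transcripts tested were called lower with a median of -0.21. The median over the 5 members tested was -0.39. In the other lists 0 of 25 genes tested were called in that comparison (edgeR, where 2 had an unadjusted p under 0.05, and DESeq2 called 0), which at a share of 1.67% does not set them apart from all transcripts.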

How the data were processed

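Genes and lists were chosen with earlier results of these data known. The authors collapsed reads with identical molecular identifiers, removed noncoding RNA, aligned to hg38 with STAR (GENCODE 30), kept 1 alignment per read and 1 transcript per gene, and counted RPFs of 28 to 35 nt. The deposited counts are unnormalized reads per region, with a shortfall of 1 read in many CDS counts, given below. The authors' RPM values are reads scaled to library size, the deposited RPKM values are RPM per length of CDS without 18 nt at its start and 15 nt at its end, and the deposited ratio is RRTS. The deposited 5′UTR density was treated as a score and not used. Whole reads were recovered from RPM (100% whole within 0.01) and used for readthrough. Deposited CDS counts lay 1 below the recovered reads in 99.9% of transcripts in G418 A and 38.0% in G418 B. In untreated A and B the shares were 1.30% and 0.113%. With recovered reads in place of deposited counts, edgeR called 452 transcripts higher and 289 lower in CDS reads, and no member. In transcripts present in all 4 tables (8568), CDS counts were tested by edgeR 4.0.16 (quasi-likelihood, TMM, low-count filter). 5′UTR counts (at least 20, with the study's minimum of reads on the CDS per condition) and readthrough reads (at least 10, with that minimum of mRNA reads per condition) used log CDS reads plus 0.5 as offset. The threshold was an adjusted p of 0.05. SE is the log2 fold change over the root of F. Alternatives included DESeq2 1.42.0, other filters and scalings, left-out libraries and a replicate block. Tests were checked on simulated data. Intervals are exact and cover counting error only. For transcripts without a 3′TC the authors' region length is 12 nt shorter than the 3′UTR. From each list the text names up to 2 rises and up to 2 falls, by size, past the threshold, that moved the same way in both lettered pairs, and every measured gene of lists with 5 or fewer names. GENCODE 44 and the tables give equal CDS lengths and stop codons for the 7 members. Other software was scipy 1.17.1, pandas 2.3.3, matplotlib 3.10.9, R 4.3.3 and Python 3.11.15. The sequence context of the BTF3 stop codon is not reported here.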

Additional observations from a re-analysis of the deposited data

How the results depend on the processing

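Calls of CDS reads depended most on which library was left out. Over all transcripts, 451 were called higher and 273 lower, with 58 to 999 higher and 15 to 1083 lower when 1 library was left out. DESeq2 called 113 higher and 140 lower, library totals 887 and 120, a higher minimum of CDS reads in each library 165 and 86, and taking absent values as 0 gave 265 and 141. Library totals moved the median log2 fold change of all transcripts to 0.11. Members called numbered 0 to 1 higher and 0 to 4 lower without 1 library, and library totals called 1 higher (SRP19). Without 1 library, log2 fold changes ranged across 0 for NACA (-0.27 to 0.045), BTF3 (-0.23 to 0.048) and SRP54 (-0.28 to 0.020). They changed sign for BTF3 (0.0015), SRP14 (0.024) and SRPRA (0.060) with library totals, and for SRPRA (0.029) with the higher minimum, settings that moved each member tested by nearly the same amount (by 0.10 for all 7 with library totals, and by 0.073 to 0.074 for the 6 tested with the higher minimum). For 5′UTR reads, 0 were called higher and 60 lower (526 had an unadjusted p under 0.05), with 0 to 37 higher and 7 to 369 lower without 1 library, 39 lower and 0 higher with DESeq2, and 1 higher each with recovered reads and with a minimum of 10. Members called lower numbered 0 to 2 without 1 library and 0 with DESeq2 or a minimum of 50. Without 1 library, BTF3 ranged from -0.71 to -0.042, SRP14 from -0.83 to 0.45 and SRP54 from -0.12 to 0.26. For readthrough, 2336 were called higher and 2 lower, 1496 to 2265 higher and 1 to 2 lower without 1 library, 1408 and 1 with DESeq2, 1536 higher with a minimum of 20 reads, and 10 lower over the whole 3′UTR, 1 of them a member (SRP19). The NACA to BTF3 ratio kept its direction, with log2 differences of -0.04 to -0.0027 without 1 library. Library letters are shared between conditions, but whether they pair the samples is not stated, and deviations of same-lettered libraries correlated at 0.275 over 5715 transcripts. With a replicate block, 618 transcripts were called higher and 452 lower in CDS reads, and 1 member (SRP19) was called higher. In 5′UTR reads the block gave 21 transcripts higher and 241 lower. The lone library of a condition was assumed to vary like the other condition, although the untreated replicates differed more than the G418 replicates. Tests of SRP19 over the whole 3′UTR were chosen after seeing the data.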
